A study of Mus musculus with 44 samples.

Results

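Of the 55335 genes counted in translating mRNA of Emx1-lineage hippocampal cells, 7 are described here: Hmgcs1, Idi1, Fdft1, Sqle and Lss, which encode enzymes of cholesterol synthesis, Srebf2, which encodes the transcription factor SREBP2, and Insig1, which encodes a protein that holds SREBP2 back. The rule that selects them uses their symbols and no measured value, but the 7 genes were chosen with earlier results of these data known. None of the 7 encodes a receptor for sterol uptake, so uptake genes are given from a separate list. The study asked how early-life exercise (ELE), a running wheel in the cage from postnatal day 21 to day 41, changes gene expression in hippocampal neurons of male mice. The control animals, called sedentary, were housed without a wheel, and cages held pairs of mice. All mice carried Emx1-Cre and the NuTRAP reporter, which tags the ribosomes and the nuclear envelope of cells that have expressed Cre. Emx1-Cre is active mainly in excitatory neurons but also in neural progenitors and may be in some astrocytes, and the tag marks every descendant of a recombined cell. Ribosome-bound mRNA was captured by translating ribosome affinity purification (TRAP) in either of these ways. Simultaneous INTACT and TRAP (SIT) pulled tagged nuclei from both hippocampi of a mouse and took what stayed in solution through TRAP, and gave 4 ELE and 4 sedentary libraries. Separate isolation took TRAP from 1 hippocampus alone, and gave 3 ELE and 3 sedentary libraries from the left and 3 ELE and 3 sedentary libraries from the right. Each library came from its own mouse.

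Cells make cholesterol from acetyl-CoA by way of mevalonate, isoprenoid units, squalene and lanosterol. When sterol in the endoplasmic reticulum is low, SREBP2 is escorted to the Golgi by SCAP, cut by site 1 and site 2 proteases and moves to the nucleus, where it raises transcription of nearly all enzymes of the pathway and of its own gene; when sterol is high, INSIG proteins keep SCAP and SREBP2 in the endoplasmic reticulum. The brain makes its own cholesterol, because lipoproteins of the blood do not cross the blood-brain barrier, and in the mature brain astrocytes make much of what neurons use.

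All 7 are protein-coding genes. On GRCm38, Hmgcs1 (HMG-CoA synthase, ENSMUSG00000093930.2) lies on the plus strand of chromosome 13 at 119690379 to 119708260 and Idi1 (isopentenyl-diphosphate isomerase, ENSMUSG00000058258.14) on the plus strand of the same chromosome at 8885501 to 8892451. Sqle (squalene epoxidase, ENSMUSG00000022351.14) and Srebf2 (ENSMUSG00000022463.8) lie on the plus strand of chromosome 15, at 59315077 to 59331192 and 82147181 to 82205379. Fdft1 (squalene synthase, ENSMUSG00000021273.11) lies on the minus strand of chromosome 14 at 63145150 to 63179578, Lss (lanosterol synthase, ENSMUSG00000033105.12) on the plus strand of chromosome 10 at 76531588 to 76557138, and Insig1 (ENSMUSG00000045294.11) on the plus strand of chromosome 5 at 28071363 to 28078662. Exons of Hmgcs1, Idi1, Fdft1 and Lss overlap exons of a gene on the opposite strand over 323 to 774 bases, among them those of Fdft1 and Ctsb; the counting used strand.

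Promoter windows of 250 bases before and 50 after the gene start (RefSeq, GRCm38.p6) were at hand for 5 of the 7 genes, not for Sqle and Fdft1. The core of a sterol regulatory element was searched as TCACNCCA on both strands and stood in 2 of these 5 windows, against 4.36% of 32851 promoters. The CCAAT box, bound by NF-Y, which is known to act with SREBP2, was searched as CCAAT on both strands and stood in 5 of 5 windows, against 37.4% of promoters, and GGGCGG, the GC box, in 5 of 5 against 35.7%. The stretches below show these letters in capitals, 5′ to 3′ on the plus strand, which is the strand of all these genes: the sterol element for Hmgcs1, 137 bases before the start (chr13:119690203-119690232), and for Srebf2, 162 bases before it (chr15:82147096-82147125), and otherwise the CCAAT box nearest before the start, here reading ATTGG, for Insig1 (chr5:28071185-28071214), Idi1 (chr13:8885581-8885610) and Lss (chr10:76531532-76531561). They are matches of letters and not measured binding sites.
Hmgcs1: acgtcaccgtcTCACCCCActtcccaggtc
Srebf2: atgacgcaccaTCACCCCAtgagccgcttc
Insig1: gccctcctcccATTGGctccggcggcctca
Idi1: tccaaggtgccATTGGctggcgaccgacag
Lss: gtgatgctctgATTGGccgagctcgcatcg

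The 20 libraries held 45895097 to 65767802 counts each, and a member had between 657 counts (Lss) and 22319 counts (Srebf2) in a library. Libraries are named by their mouse number. Of the 8 SIT libraries, the comparison of ELE with sedentary used 5, those the study compared (ELE mice NT6.303, TG7.4.1 and TG7.4.2 and sedentary mice NT6.305 and NT6.306). Of the others, NT7.2.4 and NT7.2.3, both sedentary, stood apart: mitochondrial genes took 9.64% and 8.64% of their counts, against 0.0704% to 0.523% in the other 18 libraries, and 6 inhibitory neuron markers summed to 854 and 817 CPM (counts scaled to a common library size with TMM factors), against 40.5 to 108. Markers of excitatory neurons summed to 9839 to 13450 CPM in the 20 libraries. Astrocyte markers summed to 2299.6 to 6144 CPM and oligodendrocyte markers to 2383 to 5236 CPM, so transcripts typical of other cell types were present in every library. Whether they came from tagged or untagged cells was not tested. In such pooled RNA, fewer cells of a type and less RNA per cell cannot be told apart.

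Per kilobase of annotated exon, Hmgcs1 and Srebf2 stood highest, with medians over the 20 libraries of 49.1 and 45.5 CPM per kb. Insig1 followed at 20.1, Fdft1 at 16.9, Idi1 at 11.4 and Sqle at 10.9 CPM per kb, and Lss was lowest at 1.73 CPM per kb. The union of annotated exons of Lss is 10787 bases long, the longest of the 7. Where such a union is longer than the translated transcripts, the value per kb is too low, which limits comparison between genes. Neighbours in this order were separated in all 20 libraries only at 2 steps, Srebf2 above Insig1 and Sqle above Lss. Hmgcs1 exceeded Srebf2 per kilobase in 8 of 8 SIT libraries but in 2 of 12 separately isolated ones. The order of Insig1 and Fdft1 held in 17, of Fdft1 and Idi1 in 19 and of Idi1 and Sqle in 15 of 20. Within a gene, CPM ranged over the 20 libraries by a factor of 1.45 for Idi1 to 2.31 for Lss. Among the 12 separately isolated libraries the coefficient of variation was smallest for Srebf2 (8.24%) and Hmgcs1 (8.66%) and largest for Insig1 (15.6%).

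**Figure D1:**
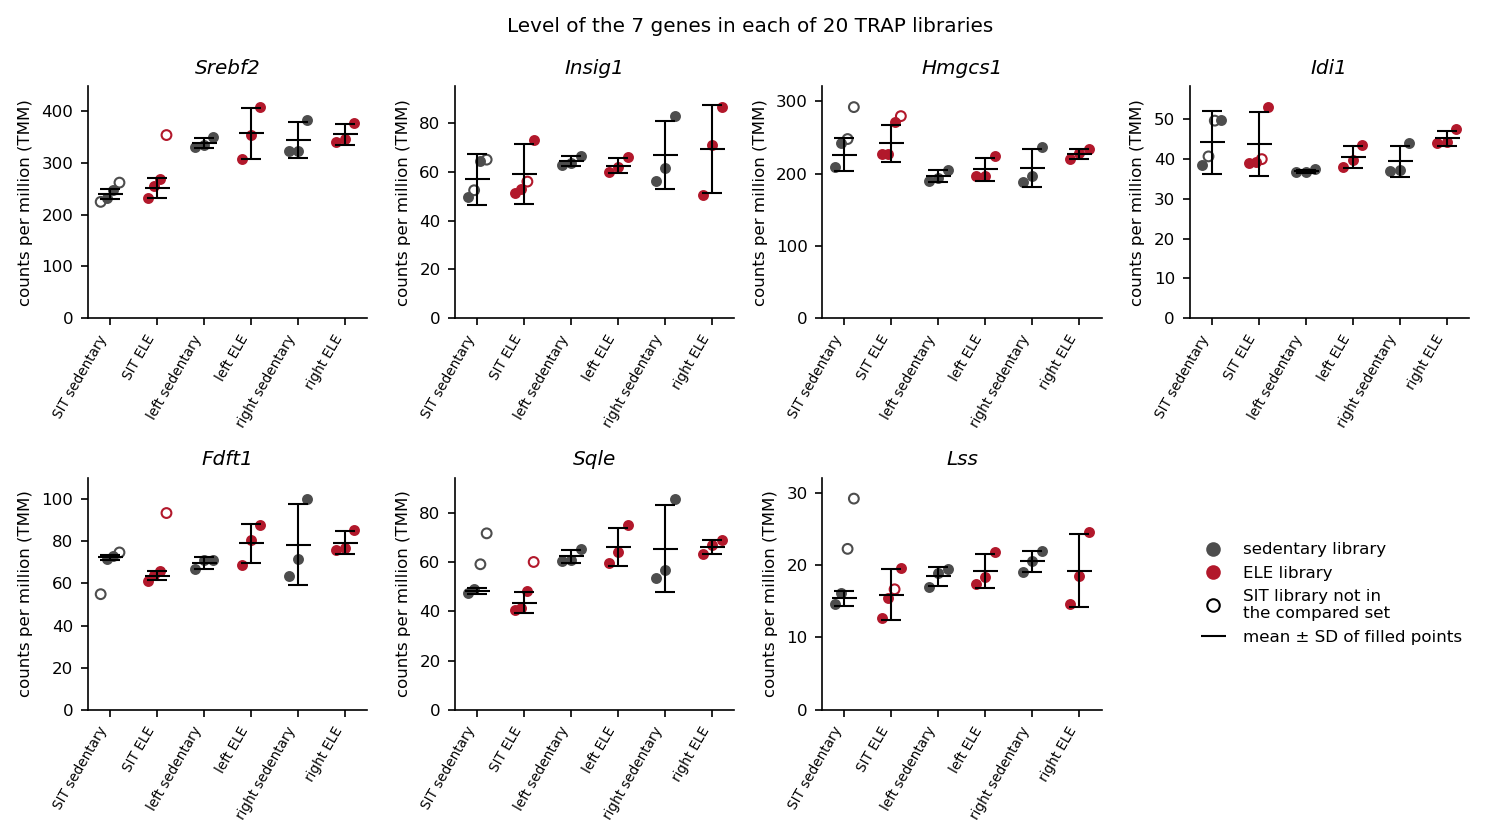
Level of each gene in CPM, normalized with TMM, in every library, by group. Filled points are the libraries compared and open points the 3 SIT libraries outside the compared set; bars give mean ± SD of the filled points. Srebf2 lies lower in the compared SIT libraries (231 to 269.7 CPM) than in the 12 separately isolated ones (308 to 408 CPM).

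ELE and sedentary mice were compared within SIT, within the left and within the right hippocampus, and over the 12 separately isolated libraries with hemisphere as a covariate. A gene was called, after the study, at an unadjusted p under 0.05 and a change of more than 1.3-fold, with edgeR's quasi-likelihood test over all genes. None of the 7 was called in SIT, where 3.73% of all genes tested were, none on the left (background 2.12%), none on the right (2.00%) and none over both hemispheres (2.06%). Of the 7 unadjusted p-values in each comparison, none was under 0.05 in SIT (5.48% of all genes), on the left (3.94%) or on the right (2.78%), and 1 was over both hemispheres (5.31%). The median log2 fold change of the 7 was 0.05 in SIT, 0.08 on the left, 0.05 on the right and 0.06 over both hemispheres, and 4, 6, 6 and 6 of the 7 changes were above 0. The direction hung on single libraries: without the ELE mouse TG9.1.4 the left changes of Hmgcs1, Sqle, Srebf2 and Lss turned negative (-0.002, -0.01, -0.03 and -0.05), and without the ELE mouse TG9.2.1 the right changes of Sqle, Insig1, Srebf2 and Fdft1 did (-0.01, -0.14, -0.003 and -0.04).

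Neither regulator was called in these comparisons. In SIT, Srebf2 stood at 231, 255 and 269.7 CPM in the compared ELE libraries and at 233 and 247 CPM in the sedentary ones, with a log2 fold change of 0.07 (SE 0.10). With all 8 SIT libraries and a block for the first part of the mouse number it was 0.39 (SE 0.15) and called, as were 8.71% of all genes, and in the 4 NT6 mice alone, the only block with both treatments, it was 0.38 (SE 0.16) and not called. Srebf2 stood at 308, 355 and 408 CPM in the left ELE libraries and at 330.4, 335 and 349.8 CPM in the left sedentary ones, which overlapped. On the right, its ELE libraries stood at 341, 347 and 377 CPM and the sedentary ones at 324, 324 and 384 CPM. Over both hemispheres the log2 fold change of Srebf2 was 0.06 (SE 0.07, 95% interval -0.09 to 0.21), which leaves out a change of 1.3-fold. For Insig1 it was 0.01 (SE 0.12, 95% interval -0.24 to 0.25), against 0.05 (SE 0.18) in SIT, and its right ELE libraries, at 50.6, 71.0 and 86.5 CPM, lay on both sides of the sedentary ones, at 56.3, 61.6 and 82.8 CPM.

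Among the early enzymes, Idi1, which interconverts the isoprenoid building blocks, was the member with the smallest p on the right and over both hemispheres, while in SIT and on the left that was Fdft1. The left ELE libraries of Idi1 stood at 38.0, 39.7 and 43.5 CPM and the left sedentary ones at 36.7, 36.7 and 37.4 CPM. On the right the ELE libraries stood at 44.0, 44.4 and 47.4 CPM and the sedentary ones at 37.1, 37.3 and 44.0 CPM. Every ELE library of Idi1 thus lay above every sedentary one of its own side, on the right by a margin of under 0.1 CPM to the sedentary mouse TG9.1.1. In the left comparison 10.7% of all genes had groups that did not overlap, in the right one 7.96%, and 0.362% were higher in ELE without overlap on both sides. The log2 fold change of Idi1 was 0.13 (SE 0.09) on the left, 0.20 (SE 0.10) on the right and 0.16 (SE 0.06, 95% interval 0.03 to 0.30) over both hemispheres. The last value had an unadjusted edgeR p of 0.0187 and an adjusted p of 0.924, and lay under the 1.3-fold limit. In SIT the log2 fold change of Idi1 was -0.01 (SE 0.17), with ELE libraries at 38.9, 39.2 and 53.0 CPM and sedentary ones at 38.6 and 49.7 CPM.

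Hmgcs1, at the head of the pathway, had log2 fold changes of 0.10 (SE 0.11) in SIT, 0.07 (SE 0.08) on the left, 0.14 (SE 0.10) on the right and 0.10 (SE 0.06, 95% interval -0.03 to 0.24) over both hemispheres. Of the enzymes from squalene on, Fdft1 gave opposite estimates in SIT and on the left. In SIT the 3 compared ELE libraries held 61.2, 64.0 and 65.7 CPM of Fdft1 and the sedentary ones 71.5 and 73.2 CPM, which did not overlap, as for 21.6% of all genes in groups of this size. On the left, Fdft1 stood at 68.9, 80.4 and 87.5 CPM in ELE and at 66.6, 71.0 and 71.3 CPM in sedentary libraries. The log2 fold changes of Fdft1 were -0.18 (SE 0.10) and 0.18 (SE 0.10), with unadjusted edgeR p of 0.104 and 0.109, and whether they differ was not tested. The SIT value depended on the libraries compared: the ELE mouse NT6.304, outside the compared set, held 93.4 CPM of Fdft1, and with all 8 SIT libraries the log2 fold change was 0.06 (SE 0.17). Sqle, which adds oxygen to the squalene that Fdft1 makes, changed by -0.15 (SE 0.12) in SIT, 0.09 (SE 0.10) on the left and 0.02 (SE 0.16) on the right on the log2 scale. Lss changed by 0.05 (SE 0.20), 0.06 (SE 0.12) and -0.09 (SE 0.18).

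The difference of the ELE effect between right and left, the interaction term over the 12 libraries, was called for none of the 7, against 2.21% of all genes. The unadjusted edgeR p of the 7 interactions ran from 0.442 (Fdft1) to 0.855 (Srebf2). The interaction was imprecise, with standard errors of 0.13 for Idi1 to 0.24 for Insig1 on the log2 scale.

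**Figure D2:**
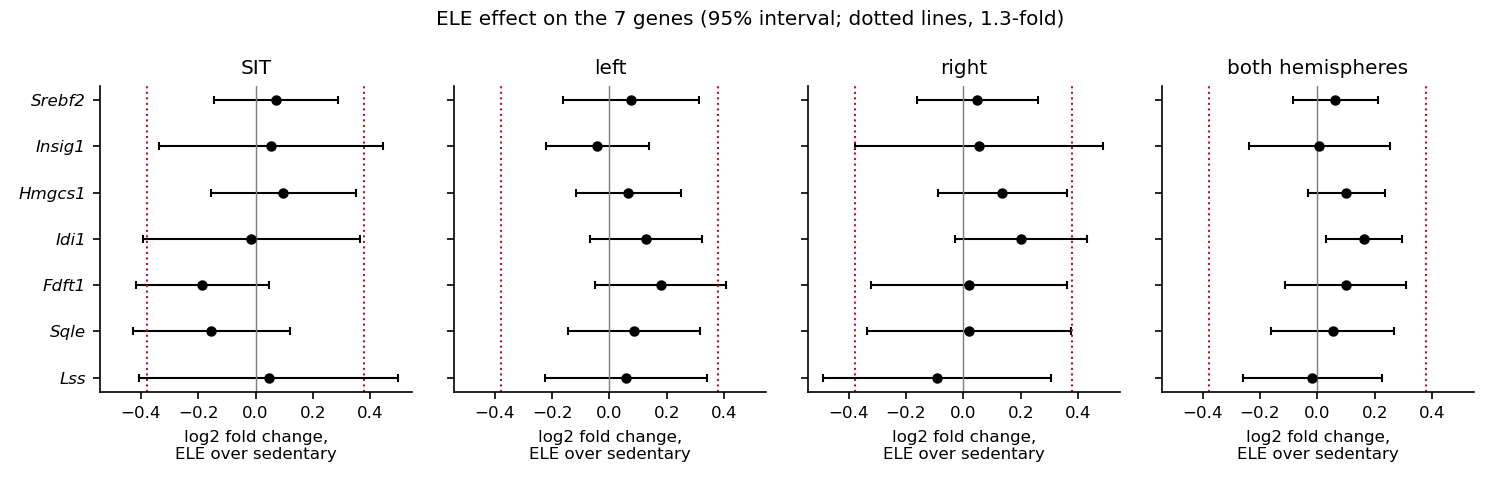
Log2 fold change of ELE over sedentary for each gene, in 4 comparisons, with its 95% interval from edgeR's quasi-likelihood fit; dotted lines mark a change of 1.3-fold. All points lie inside the dotted lines, and of the 28 intervals only that of Idi1 over both hemispheres (0.03 to 0.30) leaves out 0.

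Of 45 further genes in 6 lists (enzymes of the mevalonate stage and of sterol synthesis, SREBP regulators, other SREBP2 targets, genes of sterol uptake, storage, efflux and turnover, and fatty acid synthesis), 1 was called in SIT and 1 on the left, none on the right and none over both hemispheres, against the 3.73%, 2.12%, 2.00% and 2.06% of all genes. Hsd17b7, a 3-ketosteroid reductase of the sterol pathway, was higher in ELE in SIT, with a log2 fold change of 0.54 (SE 0.17, edgeR adjusted p = 0.905). Tm7sf2, a sterol reductase, was lower in ELE on the left, with a log2 fold change of -0.41 (SE 0.14, edgeR adjusted p = 0.96). Over both hemispheres the changes in mevalonate-stage enzymes ran from -0.15 (Mvk) to 0.14 (Pmvk) and those in the other sterol enzymes from -0.21 (Tm7sf2) to 0.17 (Cyp51). SREBP regulators ran from -0.14 (Srebf1) to -0.01 (Mbtps2), with 0 of 5 above 0 (3 of 5 in SIT, 2 on the left and 0 on the right), other SREBP2 targets from -0.02 (Tmem97) to 0.14 (Stard4), the uptake and efflux list from -0.20 (Abca1) to 0.26 (Lrp8), and fatty acid synthesis from -0.05 (Fads2) to 0.14 (Acly).

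While none of the 7 genes was called between ELE and sedentary mice, they rose and fell with each other from library to library in the separately isolated set. Over these 12 libraries, the 21 pairs of members had a median Pearson r of log2 CPM of 0.593, from 0.132 (Idi1 and Lss) to 0.849 (Sqle and Srebf2), and all 21 were positive. Of the pairs, 14 had an r over 0.5, against 6.94% of all pairs among 18810 genes, whose median r was 0. An r of 0.593 or more was reached by 3.48% of all gene pairs. The median Spearman rho of the 21 pairs was 0.51.

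Sqle was at the centre, with a median r of 0.735 with the other 6, and Hmgcs1 was next at 0.706. Sqle and Srebf2 had r = 0.849 (permutation p = 0.0005, adjusted over 21 pairs 0.00574) and rho = 0.93 (permutation p = 4e-05, adjusted 0.00084), over 12 libraries. Sqle and Fdft1, consecutive enzymes, had r = 0.841 (permutation p = 0.00082, adjusted 0.00574), but rho was lower at 0.608 (permutation p = 0.0398, adjusted 0.104). Hmgcs1 and Sqle had r = 0.798 (permutation p = 0.00058, adjusted 0.00574) and rho = 0.818 (permutation p = 0.00205, adjusted 0.0215). Insig1 and Lss had r = 0.785 (permutation p = 0.00325, adjusted 0.0171) and rho = 0.531 (permutation p = 0.0795, adjusted 0.167). In all, 8 of the 21 pairs had an adjusted permutation p under 0.05 by r and 4 by rho. Idi1 and Lss were tied least to the others, with median r of 0.46 and 0.459.

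Some libraries lay to the same side of the mean for most of the genes. The right sedentary mouse TG9.1.1 and the right ELE mouse TG9.2.1 lay above the mean for 7 of 7 genes, by 0.26 and 0.21 on the log2 scale on average, and the left ELE mouse TG9.1.4 for 6 of 7, by 0.12. The right sedentary mouse TG9.2.3 lay below the mean for all 7, by 0.15. Both treatments and both sides were thus among the high libraries. With the 2 libraries farthest from the median of the first gene left out of each pair, the median r was 0.437 and all 21 pairs remained positive; for Sqle and Srebf2 r was then 0.93, for Sqle and Fdft1 0.573, for Hmgcs1 and Sqle 0.769 and for Insig1 and Lss 0.557. Leaving out 1 library at a time gave medians of 0.499 (without TG9.1.1) to 0.685 (without TG9.1.3). Without TG9.2.1, 1 pair was negative, at -0.26. Within the 6 right libraries the median r was 0.727, with 21 of 21 positive, and within the 6 left ones 0.489, with 16 of 21 positive. With group means subtracted the median was 0.609, which 5.74% of all gene pairs reached, so the shared variation lay within groups. The share of all gene pairs was not computed for the left or right libraries alone.

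**Figure D3:**
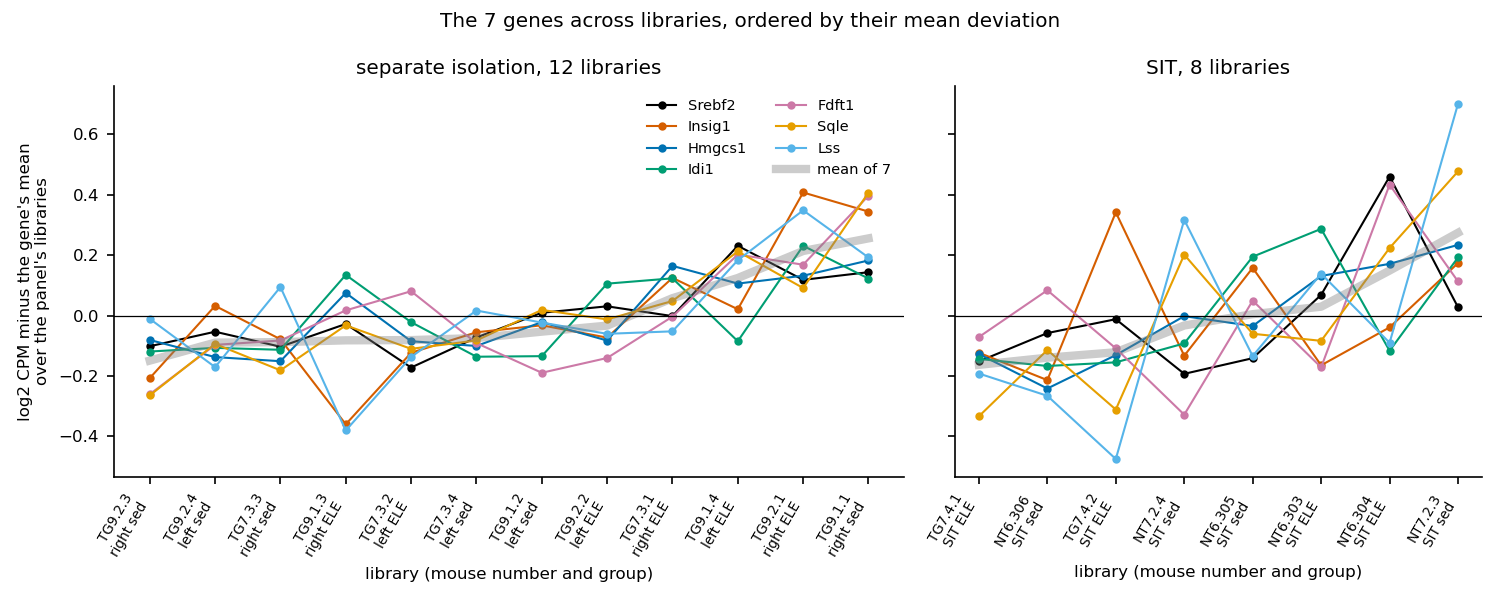
Log2 CPM of each gene (pseudocount 0.5 CPM) minus its mean over the libraries of the panel, with libraries ordered by the mean over the 7 genes (grey band). In the separately isolated libraries the lines rise together, ending with TG9.2.1 and TG9.1.1, where all 7 genes lie above 0; in SIT they cross more often.

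The same libraries differed in much else. The first principal component of the 12 libraries held 34.1% of the variance over 14124 genes whose mean was 1 CPM or higher. The mean of the 7 genes followed it with r = 0.831, and single members with r between 0.362 and 0.93, against a median absolute r of 0.339 over all genes. With this component removed the median r of the 21 pairs was 0.312, and 17 of 21 were positive. The summed astrocyte markers followed the mean of the 7 genes with r = 0.856 (rho = 0.552; 0.747 without the 2 farthest libraries): they stood at 5659 to 6144 CPM in TG9.2.1, TG9.1.1 and TG9.1.4 and at 3535 to 4449 CPM in the other 9 libraries. Within that list Gfap stood at 3335 to 4061 CPM in these 3 libraries and at 1259 to 1949 CPM in the other 9. The list did not move as a whole: the mean r with the 7 genes was 0.697 for Gfap and 0.603 for Aqp4, but -0.604 for Gja1, -0.478 for Aldoc and -0.474 for Slc1a3, and 4 of 7 astrocyte markers were positive. Oligodendrocyte markers were negative, 7 of 7, with a median mean r of -0.441. Of 4 choroid plexus markers 0 were positive (median -0.36), and of 5 endothelial markers 0 (median -0.229). Excitatory neuron and microglia markers were mixed, with 3 of 6 positive in each list. The summed inhibitory neuron markers followed the mean of the 7 genes with r = 0.59 (rho = 0.608; 0.579 without the 2 farthest libraries), but of the 6 markers only Gad1 was high (mean r with the 7 genes 0.64, the others -0.16 to 0.116). Oligodendrocyte markers followed it with r = -0.572 (rho = -0.441; -0.3 without them). The total counts of a library followed the mean of the 7 genes with r = -0.324 (rho = -0.266), and the mitochondrial share with r = 0.111 (rho = 0.217). The part of any of these in the shared movement was not tested.

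Other enzymes of the pathway moved with the 7 genes over the 12 libraries, as a description of the same libraries. The mean r of a gene with the 7 had a median of -0.01 over 18810 genes, of which 48.9% were positive. Of 9 other sterol synthesis enzymes 6 were in the top 10% of all genes, with a list median of 0.612: Nsdhl (0.705), Msmo1 (0.704), Dhcr7 (0.632), Cyp51 (0.627), Sc5d (0.612) and Hsd17b7 (0.447). Tm7sf2 (-0.20) and Ebp (-0.42) were negative. Of 6 mevalonate-stage enzymes 4 were in the top 10%, Fdps (0.629), Mvd (0.593), Acat2 (0.53) and Pmvk (0.451), while Ggps1, which leads away from sterols, was at -0.549. Stard4, a sterol carrier and SREBP2 target, was at 0.602. The uptake, storage, efflux and turnover list had a median of -0.221, with 4 of 14 positive, and held both Lrp8, a lipoprotein receptor, at 0.724 and Npc2, a lysosomal sterol carrier, at -0.605. Of 5 other SREBP regulators 1 was positive, and Mbtps1, the site 1 protease, and Insig2 stood at -0.455 and -0.45. Fatty acid genes had a median of -0.03, with Acly, which supplies acetyl-CoA, at 0.725. The genes most like the 7 lay outside the pathway lists, among them Ubash3b (0.767), Gm13749 (0.758), Hdac2 (0.757) and Tcf25 (0.752). The best placed member, Sqle, ranked 120 of 18810 by its mean r with the other 6, so many genes outside the pathway moved with the 7 at least as closely.

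**Figure D4:**
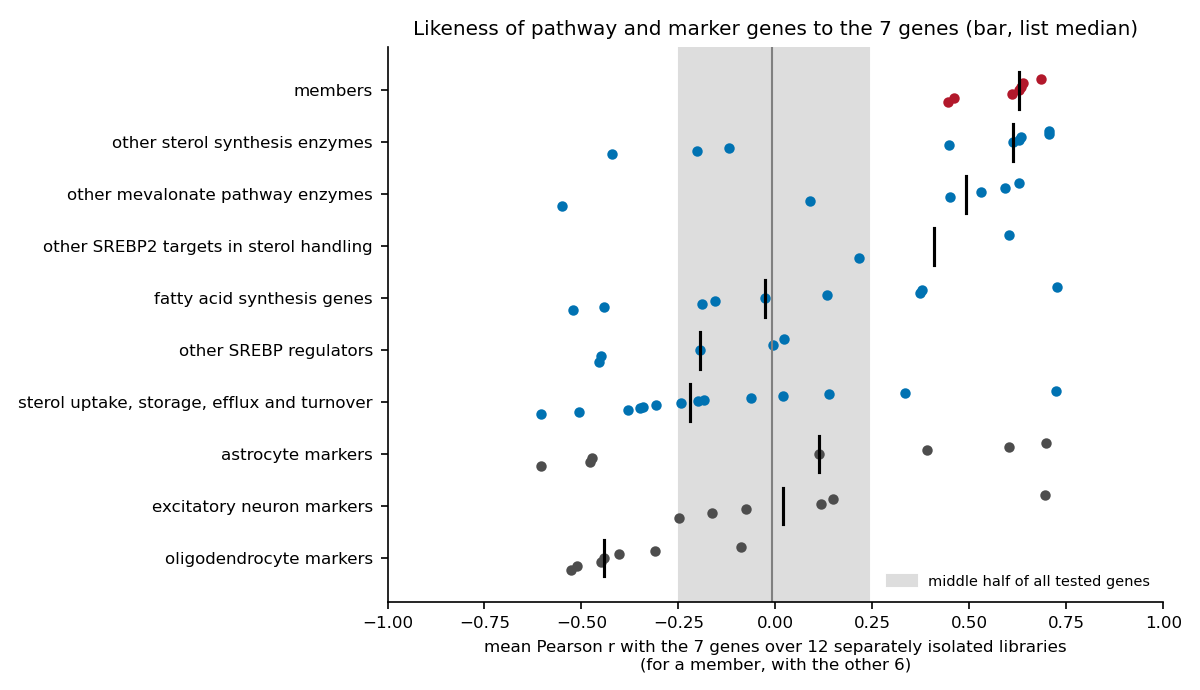
Mean Pearson r of each listed gene with the 7 genes over the 12 separately isolated libraries, by list; bars are list medians and the grey band spans the quartiles of all 18810 genes (-0.249 to 0.24). Most sterol and mevalonate enzymes lie to the right of the band, beside the members, and the oligodendrocyte markers lie to its left, apart from Cldn11 at -0.09.

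Over the 8 SIT libraries the median r of the 21 pairs was 0.301, from -0.09 to 0.844 (Sqle and Lss), with 16 of 21 positive, and 27.9% of all gene pairs reached 0.301 or more. None of the 21 had an adjusted exact permutation p under 0.05, and 4 had an unadjusted one. Without NT7.2.3, the library with 8.64% mitochondrial counts and all 7 genes above the mean (by 0.27 on the log2 scale), the median was 0.09. In the 5 SIT libraries compared it was 0.22, with 11 of 21 positive. Whether the median differs between the isolations was not tested.

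Srebf2 and Sqle were called lower in SIT than in separate isolation. This comparison was chosen with the values in view, and isolation cannot be told apart from the cohort of mice and from the use of 1 or both hippocampi. The mitochondrial share differed as well, at 0.245% to 0.523% in the compared SIT libraries and 0.0704% to 0.122% in the separate ones. Srebf2 stood at 233 and 247 CPM in the compared sedentary SIT libraries, and at 324, 333 and 384 CPM (lowest, median and highest) in the 6 sedentary separate ones. In ELE it stood at 231, 255 and 269.7 CPM in SIT and at 308, 351 and 408 CPM in the 6 separate libraries. Neither pair of groups overlapped, as for 29.8% of all genes in the sedentary and 14.9% in the ELE arm. The log2 fold change of Srebf2 in SIT over separate isolation was -0.51 (SE 0.08, edgeR adjusted p = 0.00258) in sedentary mice and -0.50 (SE 0.09, edgeR adjusted p = 0.00557) in ELE mice. The exact two-sided permutation p was 0.0714 (2 against 6) and 0.0238 (3 against 6), each the smallest such a design allows.

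Sqle stood at 47.5 and 49.3 CPM in sedentary SIT libraries and at 53.8, 60.8 and 86.0 CPM (lowest, median and highest) in the 6 sedentary separate ones. In ELE it stood at 40.7, 41.4 and 48.5 CPM in SIT and at 59.9, 65.5 and 75.0 CPM in the 6 separate libraries. Again neither pair overlapped. The log2 fold change of Sqle was -0.40 (SE 0.15, unadjusted edgeR p of 0.0172, adjusted 0.0896) in sedentary and -0.61 (SE 0.09, edgeR adjusted p = 0.00275) in ELE mice. These 2 were the members called in either arm, lower in SIT in both. Of all genes 15.9% were called in the sedentary arm (10.2% lower) and 13.2% in the ELE arm (8.85% lower). Fdft1 was lower in the ELE arm below the fold limit, with a log2 fold change of -0.32 (SE 0.09, edgeR adjusted p = 0.0361) and groups that did not overlap, and was at -0.03 (SE 0.14) in the sedentary arm. Lss stood at -0.34 (SE 0.11, unadjusted edgeR p of 0.012, adjusted 0.0714) in sedentary mice, whose groups did not overlap, and at -0.27 (SE 0.17) in ELE mice. Hmgcs1 and Idi1 were not lower, at 0.16 (SE 0.09) and 0.21 (SE 0.11) in sedentary and 0.16 (SE 0.09) and 0.03 (SE 0.11) in ELE mice, and Insig1 stood at -0.20 (SE 0.13) and -0.16 (SE 0.16).

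The call depended on which SIT libraries were taken. With all SIT libraries, Sqle in sedentary mice was at -0.17 (SE 0.15) and no longer called, since NT7.2.3 and NT7.2.4 held 71.8 and 59.2 CPM, and Srebf2 in ELE mice was at -0.36 (SE 0.12), under the fold limit, since NT6.304 held 354 CPM. Srebf2 in sedentary mice (-0.50) and Sqle in ELE mice (-0.48) were still called, against 16.3% and 11.1% of all genes. The sedentary call of Sqle was also lost without NT6.305, without NT6.306 or without TG9.1.1, with log2 fold changes of -0.43, -0.38 and -0.30 (the first 2 fits hold a single SIT library), while the other 3 calls held with each library of the comparison left out in turn.

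Among the 45 further pathway genes, 12 were called lower in SIT in the sedentary arm and 13 in the ELE arm, none higher, against 10.2% and 8.85% of all genes called lower. The same 11 were called lower in both arms, against 4.83% of the 18068 genes tested in both. Among these 11 were Srebf1 (-0.66 and -0.87 on the log2 scale in the sedentary and the ELE arm), Scap (-0.55 and -0.45), the receptors Lrp1 (-0.75 and -0.73) and Lrp8 (-0.69 and -0.81), Soat1, which esterifies cholesterol (-0.51 and -0.40), Abca1, which exports it (-0.63 and -0.47), and the fatty acid genes Fasn (-0.49 and -0.47), Scd1 (-0.57 and -0.56), Scd2 (-0.46 and -0.46) and Fads1 (-0.42 and -0.48). None of the 6 mevalonate-stage enzymes was called in either arm. Astrocyte markers were lower in SIT as well, 7 of 7 in both arms, with 5 called in sedentary and 4 in ELE mice. Their sum stood at 3089 to 3113 CPM in sedentary SIT against 3666 to 6136 CPM in sedentary separate libraries, and at 2535 to 4063 CPM against 3535 to 6144 CPM, which overlap, in ELE. Of 6 inhibitory neuron markers 6 were called higher in the sedentary arm, against 5.78% of all genes, and none in the ELE arm. Their sums were 75.4 to 76.1 CPM in SIT against 40.5 to 62.6 CPM in sedentary mice, and 63.5 to 76.2 CPM against 42.8 to 74.5 CPM in ELE mice. Of 6 excitatory neuron markers, 1 was called higher and 1 lower in the sedentary arm, and 2 higher and 1 lower in the ELE arm. Of 7 oligodendrocyte markers 3 and 1 were called higher in the 2 arms, and of 6 microglia markers 2 and 0. The share of all genes called higher was 5.78% and 4.39%. Among endothelial and choroid plexus markers the only call was 1 endothelial marker, lower in ELE mice. The part of other cell types in the lower Srebf2 and Sqle was not tested.

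**Figure D5:**
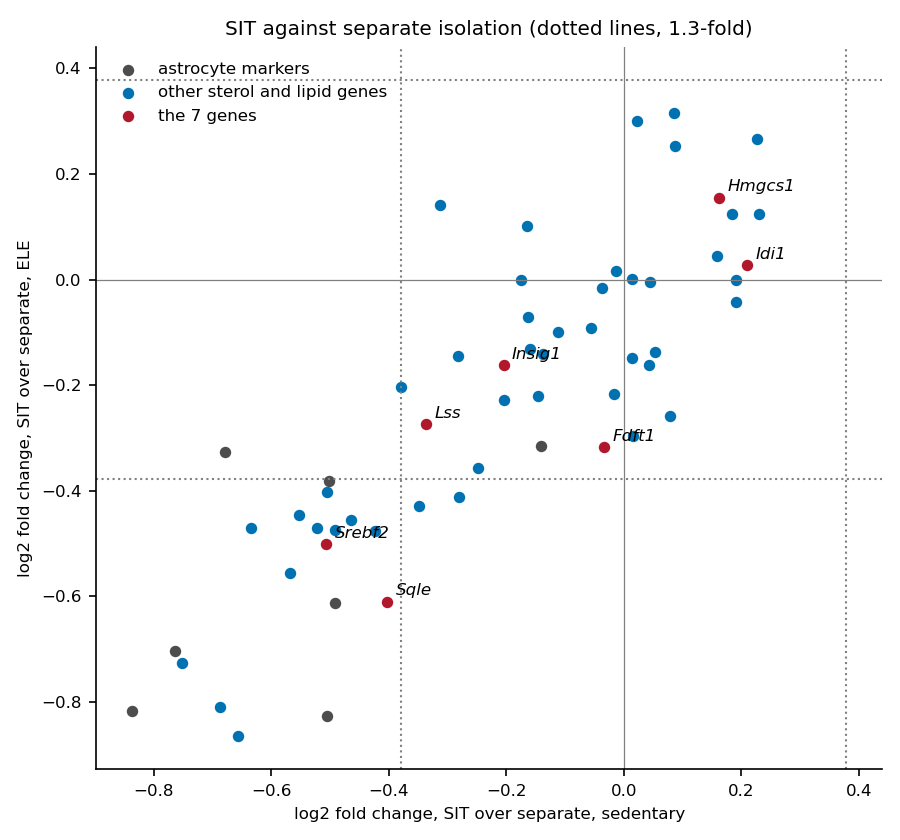
Log2 fold change of SIT over separate isolation in sedentary mice (horizontal axis) and in ELE mice (vertical axis), for the 7 genes, 45 further sterol and lipid genes and 7 astrocyte markers; dotted lines mark 1.3-fold. Srebf2 and Sqle lie past the dotted lines on both axes, and Hmgcs1 and Idi1 lie above 0 on both.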

How the data were processed

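RNA was poly(A)-selected, and a directional kit was used. Reads were aligned to GRCm38 with STAR 2.7.3a, duplicates were removed with Picard 1.87, and fragments on exons were counted per gene with strand taken into account. The authors deposited whole-number counts per gene, not normalized. Gene symbols, coordinates and exonic lengths came from GENCODE for GRCm38, which matched 55154 of 55335 genes without the version. The columns carry mouse numbers, and the study's list of mice gave each mouse its group. The 5 SIT libraries compared are the subset, of 24, that gave the mean normalized counts listed by the study for 633 of 633 genes (within 0.1%). A wild-type table of 24 columns that could not be tied to samples was not used.

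Counts were filtered with filterByExpr and fitted with edgeR 4.0.16 (TMM, quasi-likelihood, R 4.3.3) over all genes; adjusted p is Benjamini-Hochberg over all genes tested, and SE is the absolute log2 fold change over the square root of F. For each member the exact permutation test (two-sided) was run on log2 CPM with a pseudocount of 0.5. Pearson and Spearman p came from 100000 permutations (12 libraries) or all of them (8 libraries), adjusted over 21 pairs. DESeq2 1.42.0, median-of-ratios size factors, no filter, other library sets, a replicate block and leaving out each library were alternatives. On counts simulated for each comparison, with 200 genes changed by 1 on the log2 scale, an adjusted p under 0.05 recovered 94.5% in SIT (17633 genes), 97.5% on the left (17506), 99% on the right (17311), 100% over both hemispheres (18123) and 66.5% for the interaction (18139), and 4.06%, 3.47%, 1.98%, 8.26% and 5% of the genes called were unchanged ones. The simulation gave every gene the same dispersion. These shares therefore do not carry over to smaller changes or to more variable genes.

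The 7 genes and all lists were chosen with earlier results of these data known. Named genes were the 7 in every comparison, list genes past the threshold, of lists the genes with the largest and smallest change (given over both hemispheres), and, of the 5 genes most like the 7, those given here; single genes of the likeness lists were named after their values were seen. No library was a copy of another (chi-square per gene 18.9 to 423 over 24 pairs within groups). Libraries held 45895097 to 65767802 counts. Some genes are not reported here.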

Additional observations from a re-analysis of the deposited data

Results flagged for a closer look

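In 3 of 14 sets of 4 SIT libraries (7 genes, ELE and sedentary), 1 library lay far from the other 3, with a gap to the nearest over 0.829 of the range of the set; chance gives about 1 in 20. Idi1 was highest in the ELE mouse NT6.303, at 53.0 CPM, with the other 3 at 38.9 CPM or slightly above (gap 0.925 of the range). Fdft1 was highest in the ELE mouse NT6.304, at 93.4 CPM, with the other 3 between 61.2 and 65.7 CPM (gap 0.862). Fdft1 was lowest in the sedentary mouse NT7.2.4, at 54.9 CPM, with the other 3 between 71.5 and 74.7 CPM (gap 0.837). NT6.304 and NT7.2.4 are outside the 5 libraries compared. Groups of 3 libraries were not examined in this way.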

How the results depend on the processing

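DESeq2, median-of-ratios size factors and no filter on low counts left the direction and the side of the threshold of all 49 log2 fold changes (7 genes in 7 comparisons) as they were. A replicate block on the first part of the mouse number did the same for the 28 of the separately isolated mice. Same-numbered libraries of a side correlated at -0.0931 to 0.218 (median 0.0589, against -0.0104 for different numbers). Those across sides correlated at -0.0995 to 0.566 (median 0.0261, against 0.0177), highest for TG9.1.4 and TG9.1.1. Of 12 libraries 6 correlated best with their own number. Each first part of the number occurs once in every left and right group, and these correlations cannot decide whether it pairs the mice. Over all 8 SIT libraries the block called 1 member, Srebf2 (0.39, SE 0.15, edgeR adjusted p = 0.475), and 8.71% of all genes (1527, against 1375 with the 8 libraries unblocked and 681 with the 5 compared). This fit turned the direction of Sqle (0.18), Idi1 (0.088), Insig1 (-0.072) and Fdft1 (0.11), the 4 NT6 mice alone, the only block with both treatments, gave 0.17, 0.076, -0.083 and 0.10 and did not call Srebf2 (0.38, SE 0.16), and all 8 SIT libraries turned Fdft1 (0.065) and Lss (-0.34). In the comparison of isolations, all SIT libraries gave 1 call in each arm, and turned Lss in sedentary (0.075) and Idi1 in ELE mice (-0.0021). The median r of 0.593 was 0.301 in the 8 SIT libraries, 0.22 in the 5 compared and 0.312 with the first component removed. The causes were not tested.

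Leaving out 1 library at a time, no member was called for ELE. The log2 fold change changed sign in 44 such fits, all of them of values that were not called, and kept it in the rest. In SIT the ranges were -9.2e-05 to 0.20 (Hmgcs1), -0.18 to 0.18 (Idi1), -0.13 to 0.25 (Insig1) and -0.13 to 0.19 (Lss). On the left they were -0.0024 to 0.10 (Hmgcs1), -0.013 to 0.15 (Sqle), -0.033 to 0.17 (Srebf2) and -0.047 to 0.12 (Lss). On the right they were -0.11 to 0.26 (Sqle), -0.14 to 0.24 (Insig1), -0.0028 to 0.13 (Srebf2), -0.12 to 0.23 (Fdft1) and -0.31 to 0.071 (Lss). Over both hemispheres they were -0.086 to 0.081 (Insig1) and -0.11 to 0.061 (Lss). The interaction ran from -0.19 to 0.18 (Sqle), -0.088 to 0.29 (Insig1), -0.12 to 0.083 (Srebf2), -0.29 to 0.058 (Fdft1) and -0.36 to 0.020 (Lss). Between isolations, Fdft1 in sedentary mice ran from -0.074 to 0.072 and Idi1 in ELE mice from -0.14 to 0.11. The sedentary arm had 1 to 3 calls (3 without NT6.305, with Insig1 at -0.40 and Lss at -0.41; the lone SIT library is then assumed to vary like the rest), and the ELE arm 2 to 3 (3 without NT6.303, with Lss at -0.45).

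With 2 or 3 libraries a group, the 95% intervals of ELE over sedentary reach 0.50 on the log2 scale, and 3 against 2 or 3 cannot give an exact permutation p below 0.2 or 0.1.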
